A study of Mus musculus with 10 samples.

Results

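The 7 genes described here encode liver enzymes that break down histidine (Hal, Uroc1, Amdhd1 and Ftcd), serine and threonine (Sds and the related Sdsl) and phosphoethanolamine (Etnppl). They were chosen by name, with earlier results of these data known and with no threshold on a measured value, as the rows written hal, uroc1, amdhd1, ftcd, sds, sdsl and etnppl among the 14812 gene entries of the deposited tables. The study measured RNA in 18378 single hepatocytes, the main cells of the liver parenchyma, from C57BL/6 male mice aged 3 months that were fed regular chow ad libitum. Cells were freed by collagenase perfusion under ketamine and xylazine, purified on Percoll and captured with the 10x Chromium 3′ kit, version 2. Zeitgeber time (ZT) is the number of hours since the lights came on, by convention, and the 10 libraries comprised 3 of ZT0 and of ZT12 and 2 of ZT6 and of ZT18. No group carried a mutation or a drug treatment in the labels, which do not say how many mice gave a library, so the p-values measure the spread between these libraries.

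Histidine is degraded in a short chain of steps. Hal (histidine ammonia-lyase) removes ammonia to give urocanate, Uroc1 (urocanate hydratase) hydrates it, Amdhd1 (imidazolonepropionase) opens the ring, and Ftcd (formimidoyltransferase cyclodeaminase) passes the remaining one-carbon unit to folate, which leaves glutamate. Sds (serine dehydratase) turns serine into pyruvate and ammonia and also acts on threonine, and it is known as an enzyme induced when the liver makes glucose from amino acids. Sdsl is its close relative. Etnppl (ethanolamine-phosphate phospho-lyase) cleaves phosphoethanolamine. Blood enters the liver lobule at the portal vein and leaves by the central vein, and hepatocytes along this path differ in the enzymes they express, with amino acid breakdown and glucose production known mainly from the portal side.

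2 pairs of these genes were neighbours in GRCm38 (GENCODE M21), the mouse assembly also called mm10. Hal (chromosome 10, 93488768 to 93519304, plus strand) and Amdhd1 (chromosome 10, 93523338 to 93540033, minus strand) lay 4033 bases apart with 0 genes between them. Sdsl (chromosome 5, 120458186 to 120472810, minus strand) and Sds (chromosome 5, 120476526 to 120483932, plus strand) lay 3715 bases apart, also with 0 genes between. The other genes stood apart: Uroc1 on chromosome 6 (90333284 to 90364551, plus), Ftcd on chromosome 10 (76575648 to 76590338, plus) and Etnppl on chromosome 3 (130617448 to 130637521, plus). Sds overlaps Plbd2 and the antisense gene Gm15690 on the other strand, and whether the authors' counting used strand is not given in the sources used here, so their reads cannot be told apart with certainty. Gm15690 had 6 UMIs in all libraries. Plbd2 averaged 32.8 CPM in the pericentral and 54.1 CPM in the periportal zone of cells. Over all cells it averaged 37.8 CPM at ZT0 and 55.2 CPM at ZT12, beside 71.5 and 214.7 CPM for Sds. The part of Plbd2 reads in the Sds counts was not tested.

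RefSeq promoter entries (GRCm38.p6, from 250 bases before to 50 bases after the start site) were held for 5 of the 7: Hal, Uroc1, Amdhd1, Ftcd and Etnppl. Those of Hal and Ftcd are shown because these genes, the first and last enzymes of histidine breakdown, had the largest and smallest estimated difference between the lobule's zones. The differences of Hal and Etnppl were not told apart in the main comparison of pairs below (adjusted p = 0.568, exact permutation test). Capitals mark matches to 10 short motifs searched on both strands.

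Hal, chr10:93488518-93488817, plus strand: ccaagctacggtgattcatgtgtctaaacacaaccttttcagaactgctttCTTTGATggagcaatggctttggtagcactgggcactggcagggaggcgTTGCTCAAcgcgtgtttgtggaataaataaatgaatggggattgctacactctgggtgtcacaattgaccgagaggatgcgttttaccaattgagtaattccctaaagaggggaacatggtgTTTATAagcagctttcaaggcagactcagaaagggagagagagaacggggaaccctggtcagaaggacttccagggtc

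Ftcd, chr10:76575398-76575697, plus strand: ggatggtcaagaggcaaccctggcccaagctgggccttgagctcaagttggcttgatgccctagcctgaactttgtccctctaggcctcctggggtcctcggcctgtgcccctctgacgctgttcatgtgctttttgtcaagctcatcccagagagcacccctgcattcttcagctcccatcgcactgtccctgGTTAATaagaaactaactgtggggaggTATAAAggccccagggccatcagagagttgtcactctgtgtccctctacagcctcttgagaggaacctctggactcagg

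The capitals in the Hal promoter are a TCF motif (CTTTGAT, first base 199 bases before the start), a C/EBP motif (TTGCNNAA, 150 before) and a TATA box (TATAAA, on the other strand here, 28 before). In the Ftcd promoter they are a part site of HNF1 (GTTAAT, 56 before) and a TATA box (29 before). No 2 matches overlapped. Among all 32851 promoter windows of the same length, 13.62% held the TATA box letters, 7.1% the HNF1 part site, 3.73% the TCF motif and 10.8% the C/EBP motif. The other motifs searched were FOXA (TGTTTNC, in 20.49% of all windows), HNF4 (CAAAGTCCA, 0.47%), CRE (TGACGTCA, 1.79%), the glucocorticoid receptor part site (AGAACA, 18.97%), E-box (CACGTG, 7.15%) and D-box (TTATGTAA, 0.94%). None of the 10 sets of letters occurred in the windows of Uroc1, Amdhd1 or Etnppl, which says only that those letters are not there.

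All values are from UMI counts, where a UMI is a tag that marks 1 captured RNA molecule. Levels are in CPM, the UMIs of a gene scaled to a fixed total for the cells summed. Library totals ran from 1454623 to 7144803 UMIs, median cells held 1588 to 2662 UMIs, and mitochondrial genes took 12.879% to 24.278%. Summed over all cells, Uroc1 had 12796 UMIs, Hal 10763, Ftcd 8321, Etnppl 7484, Amdhd1 5472, Sds 4420 and Sdsl 590, so Sdsl carries the most counting error. The hepatocyte label held: 8 hepatocyte markers summed to 51813 to 95694 CPM, while markers of lymphocytes, macrophages and endothelial cells reached at most 0.609, 6.46 and 15.0 CPM. Neutrophil and stellate markers reached at most 15.06 and 11.6 CPM. The endothelial genes Clec4g and Ptprb and the macrophage genes Clec4f, Csf1r, C1qa and C1qb were at 0 in all 10 libraries. The other endothelial and macrophage markers were detected, led by Pecam1 (up to 9.79 CPM), Stab2 (up to 5.08 CPM) and Cd5l (up to 3.67 CPM). Cholangiocyte markers summed to 5.80 to 118 CPM, mainly Spp1 and Sox9, and erythroid markers to 72.2 to 361 CPM. Of the erythroid markers, Alas2 was at 67.4 to 107 CPM. The highest erythroid sum was in library B of ZT18, where the globin Hbb-bs was at 142 CPM. In sums over cells, fewer cells of one kind and less RNA per cell cannot be told apart.

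The first comparison asked how the enzymes vary along the lobule. All 7 were higher on the portal side, and the size fell into a steep and a shallow set. Hal, Etnppl, Sds and Sdsl were about 6.02-fold to 10.6-fold higher in the periportal than in the pericentral zone, whereas Uroc1, Amdhd1 and Ftcd were 2.46-fold to 2.97-fold higher. The place of Sdsl depended on the pseudocount: its difference between zones exceeded that of Uroc1 by a mean of 1.17 on the log2(CPM + 1) scale, but with 10 CPM in place of 1 that of Uroc1 was larger by 0.12 (adjusted p = 0.404, exact permutation test). Within histidine breakdown, therefore, Hal, the first enzyme, differed more between the zones than each of the 3 that follow it. Within a library, each cell was given a position score from 6 periportal genes (Pigr, Asl, Hsd17b13, Ctsc, Ass1 and Cyp2f2) less 8 pericentral genes (Rgn, Lect2, Cyp1a2, Oat, Cyp2e1, Aldh1a1, Gulo and Mgst1), in which none of the 7 enzymes has a part, and the ordered cells were split into 3 equal zones.

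Hal was measured at 4.64, 45.7 and 86.9 CPM (lowest, median and highest of 10 libraries) in the pericentral zone and at 290.9, 448 and 599 CPM in the periportal zone. The groups of values did not overlap. Its log2 fold change was 3.41 ± 0.17 (SE, n = 10 libraries, adjusted p = 1.41e-17, from edgeR's quasi-likelihood test after Benjamini-Hochberg adjustment, as for all adjusted p-values below unless another test is named).

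The 3 later enzymes of histidine breakdown kept more of their level on the central side. Uroc1 was at 68.1, 154.5 and 200.0 CPM (lowest, median, highest) in the pericentral and at 291, 404 and 537 CPM in the periportal zone, a log2 fold change of 1.57 ± 0.12 (SE, n = 10, adjusted p = 1.56e-12). Amdhd1, the ring-opening enzyme, was at 26.3, 65.7 and 94.8 CPM against 111, 158.5 and 219 CPM, a log2 fold change of 1.497 ± 0.117 (SE, n = 10, adjusted p = 1.98e-12). Ftcd was at 80.0, 112 and 140.5 CPM against 168, 279 and 380.0 CPM, with the smallest of the 7 values, 1.30 ± 0.09 (SE, n = 10, adjusted p = 6.94e-14). For each of these 3 the lowest periportal library lay above the highest pericentral one.

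Among the serine enzymes, Sds stood at 9.05, 23.3 and 47.9 CPM in the pericentral zone and at 84.9, 191 and 534 CPM in the periportal zone. Its log2 fold change of 3.08 ± 0.13 (SE, n = 10) had the lowest adjusted p of the 7, 7.76e-20. Its highest periportal values, 534 and 523 CPM, were from libraries A and C of ZT12 and its lowest from ZT18. Sdsl stood at 0, 2.83 and 5.85 CPM against 17.1, 21.8 and 35.2 CPM, a log2 fold change of 2.59 ± 0.21 (SE, n = 10, adjusted p = 8.65e-12). Its pericentral values rest on 56 UMIs in all, with under 3 in 4 of the 10 libraries, against 326 UMIs in the periportal zone. Etnppl, the phosphoethanolamine enzyme, was at 2.38, 33.5 and 70.6 CPM in the pericentral zone and at 198.5, 273 and 605 CPM in the periportal zone, with a log2 fold change of 3.21 ± 0.19 (SE, n = 10, adjusted p = 2.02e-15).

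Calls of this kind were common: of 8914 genes tested, 12.1% were called higher in the periportal zone and 24.7% in either direction, and the 7 enzymes make 7 of 7. The requirement that all 10 periportal values exceed all 10 pericentral values was met by 0.516% of genes and by 7 of 7 enzymes. Each of the 7 was also higher in the periportal zone within every library, as were 3.70% of all genes. The median log2 fold change over the 7 was 2.59, beside 0.00 over all genes tested. These members were proposed with results from these cells known, so the counts describe them and carry no test of the set.

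**Figure D1:**
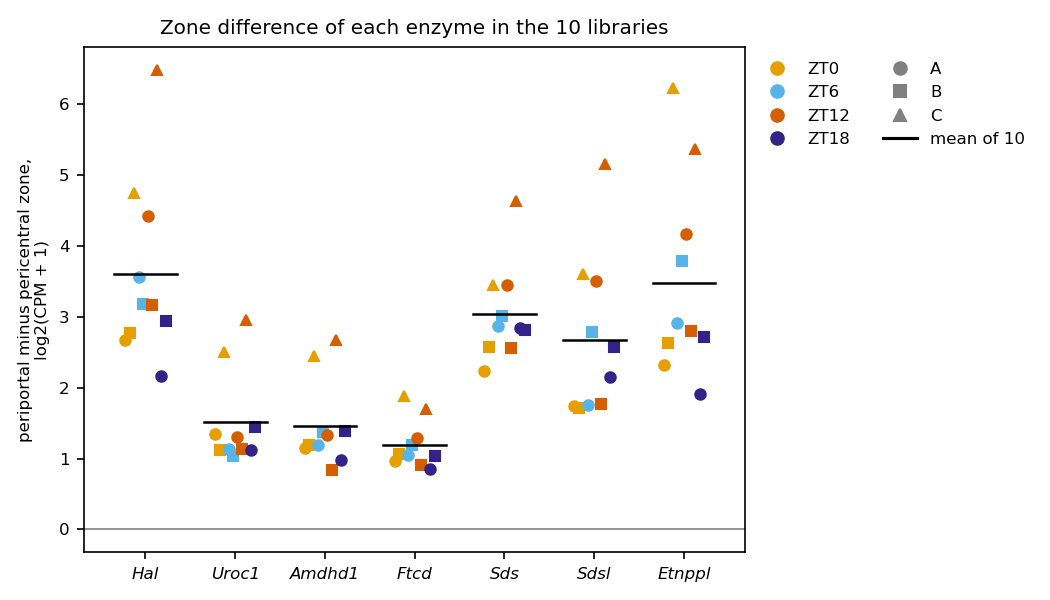
Periportal minus pericentral zone, as a difference of log2(CPM + 1), for each enzyme (x axis) in each of the 10 libraries. Colour gives the time, the symbol the library letter, and the bar the mean of 10. All points lie above 0, and the C libraries (triangles) of ZT0 and ZT12 give the highest pair of values for each enzyme except Sds, where library A of ZT12 (3.454) lies just above library C of ZT0 (3.449).

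The libraries themselves differed in how far the zones lay apart. On the log2(CPM + 1) scale, the difference for Hal was 2.17 at its lowest (ZT18, library A), 3.18 at the median and 6.49 at its highest (ZT12, library C). For Etnppl these values were 1.91, 2.85 and 6.23, and for Ftcd 0.86, 1.06 and 1.88. The C libraries of ZT0 and ZT12 shared a column of the 10x sample-index plate, column 5, and had the highest values for each enzyme except Sds, where library C of ZT0 came after library A of ZT12. Their mean difference for Hal was 5.62, beside 3.55 in column 3, 2.56 in column 4 and 3.17 in column 7. Every enzyme had a positive difference in each of the 4 columns, the lowest column mean being 0.94 for Ftcd in column 4. In the same C libraries the 8 pericentral landmarks summed to 15278 and 14677 CPM, against 6757 to 11807 CPM in the other 8, and the scores from alternate landmarks correlated at 0.8155 and 0.7991, against 0.6427 to 0.7285. Their part in the size of the difference was not tested.

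The enzymes were then compared with each other, pair by pair, in the same libraries, and 17 of 21 pairs differed (exact two-sided sign-flip permutation test over 10 libraries, Benjamini-Hochberg adjusted over the 21). The test took the libraries as independent, although the C libraries of ZT0 and ZT12 shared an index column and large differences. Its p-values may therefore be too low. Hal exceeded Uroc1 by 2.10 ± 0.78 (SD, log2 scale), Amdhd1 by 2.15 ± 0.81 and Ftcd by a mean of 2.42, each in 10 of 10 libraries (adjusted p = 0.00316, exact permutation test). Uroc1 and Amdhd1 differed by 0.05 ± 0.19 (SD), which the test did not call (adjusted p = 0.425, exact permutation test). Ftcd lay below Uroc1 by 0.32 ± 0.40 and below Amdhd1 by 0.27 ± 0.30 (SD), in 9 of 10 libraries each (adjusted p = 0.0205 and 0.00879, exact permutation test). Among the steep set, Hal and Etnppl were not told apart, at 0.13 ± 0.71 (SD, adjusted p = 0.568, exact permutation test), nor were Sds and Etnppl (adjusted p = 0.201, exact permutation test) or Sds and Sdsl (adjusted p = 0.0615). With a pseudocount of 10 CPM these 3 pairs were called (adjusted p = 0.0479, 0.0308 and 0.00342, exact permutation test). Hal exceeded Sds by 0.57 ± 0.70 (SD) in 9 of 10 libraries (adjusted p = 0.0338, exact permutation test), a call lost when library C of ZT0, A of ZT6 or A, B or C of ZT12 was left out (adjusted p = 0.0627 to 0.0676) or 0.1 CPM was the pseudocount (adjusted p = 0.0547).

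Finer steps along the lobule, 8 layers from central (1) to portal (8), gave the shape of each gradient as a description, since cells were placed by noisy scores. Mean Hal levels in layers 1 to 8 were 19.8, 41.7, 95.7, 191, 301, 399, 439 and 473 CPM over the 10 libraries. Uroc1 levels were 83.6, 166, 225.5, 311, 353, 388, 394 and 413 CPM. The first gradient ran through the whole axis, while the second had passed 50% of its highest layer by layer 3. Amdhd1 and Ftcd also reached that level by layer 3, and Amdhd1 was highest in layer 7, at 166.9 ± 44.1 CPM (SD, n = 10), with 158.0 ± 39.9 CPM in layer 8, within the spread between libraries. Hal, Sdsl and Etnppl reached it in layer 5 and Sds in layer 6.

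Sds had the highest mean share of its level in layers 7 and 8, but Hal, Etnppl and Sdsl overlapped it within their SDs. The difference in shares was not tested. Mean Sds levels in layers 1 to 8 were 20.9, 27.6, 31.4, 53.0, 116, 171, 219 and 276 CPM, so it changed little over the 3 central layers and rose over the last 4. At ZT18 alone Sds was at 55.4 CPM in layer 4 and at its highest, 98.9 CPM, in layer 7 (n = 2). Layers 7 and 8, 2 of the 8, together held 52.6% ± 8.6 (SD, n = 10) of its summed layer levels, against 47.1% ± 9.3 for Hal, 45.8% ± 9.4 for Etnppl, 44.4% ± 13.4 for Sdsl, 34.8% ± 5.7 for Uroc1, 34.5% ± 4.0 for Ftcd and 33.1% ± 4.9 for Amdhd1. Layer 8 exceeded layer 1 by 25.1-fold for Etnppl, 23.9-fold for Hal, 17.6-fold for Sdsl, 13.2-fold for Sds, 4.94-fold for Uroc1, 4.32-fold for Amdhd1 and 3.79-fold for Ftcd. The fold for Sdsl rests on 10 UMIs in layer 1 and 135 in layer 8.

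**Figure D2:**
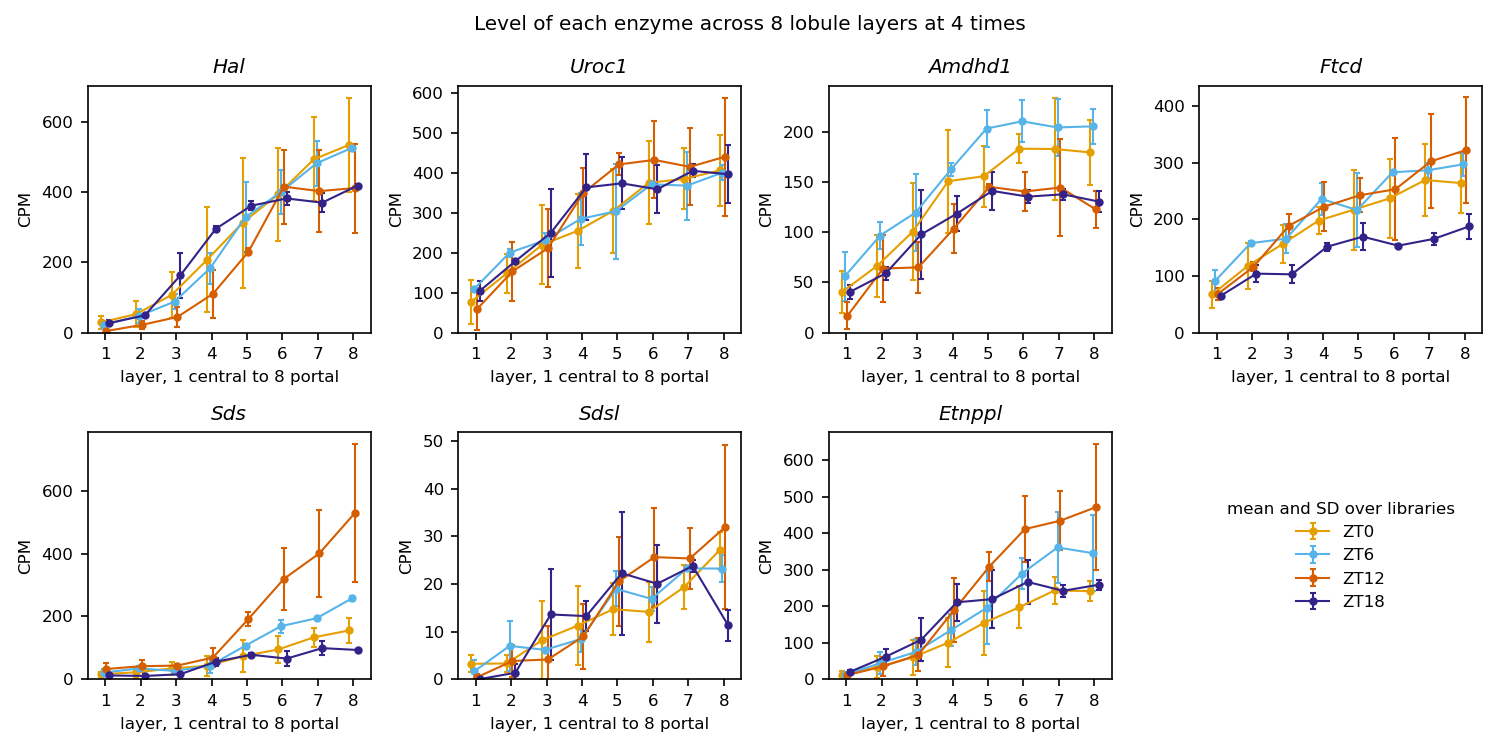
Level of each enzyme in CPM (y axis) in 8 layers from the central (1) to the portal (8) side of the lobule, 1 line per time. Points are means and bars SDs over the 3 libraries of ZT0 and ZT12 and the 2 of ZT6 and ZT18, with bars below 0 not shown. Sds at ZT12 leaves the other times from layer 5 on, reaching 530 CPM in layer 8.

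The share of cells with a UMI followed the same gradient, and at this depth more cells holding the RNA and more RNA per cell cannot be told apart. With every cell thinned to 1000 UMIs to equal its depth, 1.89% ± 1.63 (SD over 10 libraries) of layer 1 cells and 39.0% ± 6.0 of layer 8 cells had a UMI of Hal. For Etnppl the shares were 1.11% ± 0.76 and 27.2% ± 8.3, and for Sds 2.11% ± 1.38 and 21.01% ± 13.56. Uroc1 was found in 7.74% ± 3.51 of layer 1 cells and 34.0% ± 6.9 of layer 8 cells, Ftcd in 6.77% ± 1.43 and 23.7% ± 6.2, and Amdhd1 in 3.48% ± 2.22 and 13.6% ± 2.6. Sdsl was near the limit of detection, at 0.17% ± 0.30 and 2.69% ± 2.09. Without thinning the shares in layers 1 and 8 were 4.24% and 64.3% for Hal, 15.6% and 59.1% for Uroc1, 2.82% and 49.4% for Etnppl, and 4.54% and 37.7% for Sds. Median depths were 1852 UMIs in layer 1 and 2000 in layer 8. No cells of another type were set apart to give a background share, so free RNA could add to the low central shares, and its part was not tested.

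**Figure D3:**
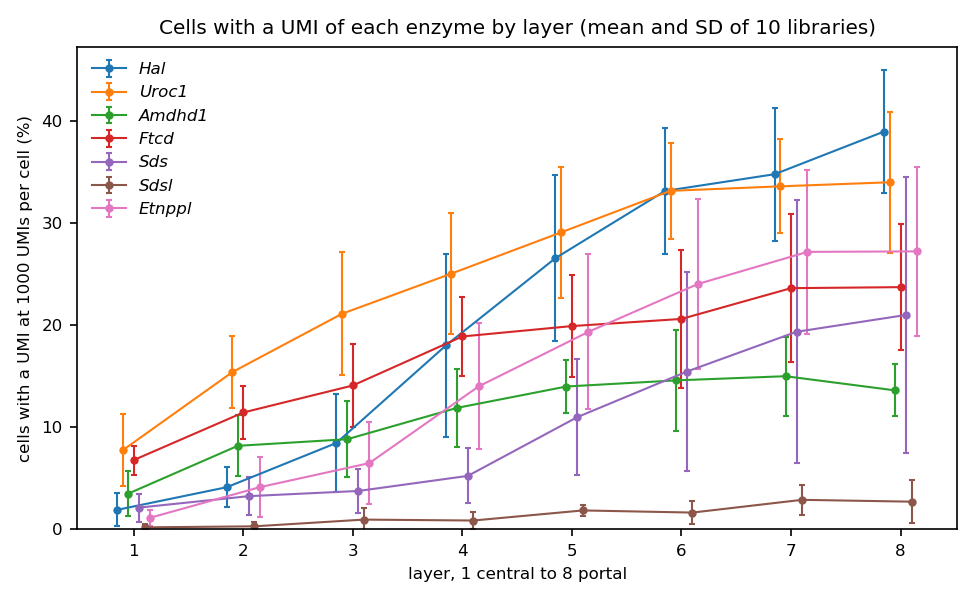
Percentage of cells with at least 1 UMI of each enzyme (y axis) after thinning to 1000 UMIs, in 8 layers from central to portal. Points are means and bars SDs over 10 libraries. Hal climbs from 1.89% to 39.0%, past Uroc1, which starts at 7.74%, and Sdsl stays below 3% in all layers.

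The second comparison asked whether the enzymes change with the time of day. Only Sds passed a test of time in the fit without blocks. It was highest at ZT12, the change from light to dark, and lowest at ZT18 and ZT0. Etnppl had its highest mean at ZT12 too and was called between ZT12 and ZT0 once libraries were paired, while no enzyme of histidine breakdown was called in any of the 4 tests of time.

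Sds levels were 104.7, 68.1 and 41.7 CPM at ZT0 (libraries A, B and C), 105.2 and 111.7 CPM at ZT6 (A and B), 264.0, 152.7 and 227.4 CPM at ZT12 and 57.8 and 52.8 CPM at ZT18. All ZT12 libraries lay above all others, and library A of ZT0 lay level with ZT6. Having every ZT12 library above every other library was met by 4.54% of 8908 genes. The 4 times differed (adjusted p = 0.0177), a test that called 1 of 7 enzymes and 6.58% of all genes. ZT12 was 2.64-fold above ZT0, a log2 fold change of 1.40 ± 0.32 (SE, n = 3 and 3, adjusted p = 0.025), where 1 of 7 enzymes and 3.44% of all genes were called, 1.74% of them higher at ZT12. Between ZT18 and ZT6 the log2 fold change was -0.90 ± 0.39 (SE, n = 2 and 2, adjusted p = 0.223).

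These calls rested on few libraries. Libraries A and C of ZT12 had the fewest cells of the 10, 710 and 1139, against 2469 in library B. Mitochondrial genes took 24.278% in A and 12.879% in C, the highest and the lowest of the 10, and 17.641% in B. The part of these differences in the Sds levels was not tested. Without library B of ZT0, A of ZT12 or C of ZT12 the ZT12 call was lost (adjusted p = 0.081, 0.106 and 0.069), as it was with the ZT0 and ZT12 libraries fitted alone without pairs (adjusted p = 0.0754), while the log2 fold change stayed between 1.19 and 1.40 in these 4 fits. With the replicate block in those 6 libraries Sds was called (log2 fold change 1.49, adjusted p = 0.00856). The difference among the 4 times was lost without A or C of ZT12 or either library of ZT18 (adjusted p = 0.0818, 0.054, 0.0627 and 0.0741). Within index-plate columns, Sds rose from ZT0 to ZT12 by 1.33 (column 3), 1.15 (column 7) and 2.42 (column 5) on the log2 scale, from 1 library of each time.

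Etnppl levels were 166.3, 122.9 and 93.7 CPM at ZT0, 220.8 and 146.0 CPM at ZT6, 323.8, 222.5 and 202.3 CPM at ZT12, and 206.9 and 151.4 CPM at ZT18. The ZT12 values lay above those of ZT0 without overlap, which held for Sds and Etnppl among the 7 and for 13.6% of all genes, but ZT6 and ZT18 overlapped both. ZT12 against ZT0 gave a log2 fold change of 0.81 ± 0.29 (SE, n = 3 and 3, adjusted p = 0.171). Libraries of the same letter shared an index column and deviated together between these times, and with the replicate block in a fit of these 6 libraries alone, added after seeing the data, the log2 fold change was 0.83 (adjusted p = 0.0208), with 4.74% of all genes called. The block over all 10 libraries, which also ties the letters of ZT6 and ZT18, not taken as pairs, gave 0.83 (adjusted p = 0.00703), with 5.66% of all genes called. Without library A of ZT0 the unpaired value was 1.12 (adjusted p = 0.0474). By column, Etnppl rose by 0.96 (column 3), 0.85 (column 7) and 1.10 (column 5) on the log2 scale.

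The enzymes of histidine breakdown varied less. Amdhd1 was at 114.5, 163.5 and 113.1 CPM at ZT0, 162.1 and 153.0 CPM at ZT6, 93.5, 106.0 and 103.4 CPM at ZT12 and 117.3 and 102.4 CPM at ZT18. Its ZT0 libraries all lay above its ZT12 libraries, as did those of 4.47% of all genes, with a log2 fold change of -0.51 ± 0.20 (SE, n = 3 and 3, adjusted p = 0.218). Ftcd was at 158.5, 229.0 and 177.3 CPM at ZT0, 227.3 and 207.8 CPM at ZT6, 197.3, 195.4 and 261.5 CPM at ZT12 and 144.9 and 134.7 CPM at ZT18. The ZT18 values were the lowest, and ZT18 against ZT6 gave -0.56 ± 0.23 (SE, n = 2 and 2, adjusted p = 0.20).

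Hal was at 225.3, 357.3 and 203.4 CPM at ZT0, 280.8 and 242.2 CPM at ZT6, 242.0, 171.9 and 218.9 CPM at ZT12 and 271.3 and 262.7 CPM at ZT18. The highest value, library B of ZT0, set most of the gap to ZT12, whose log2 fold change was -0.47 ± 0.24 (SE, n = 3 and 3, adjusted p = 0.367): within columns 3 and 5 it was 0.10 and within column 7 -1.05. Uroc1 was at 221.0, 339.3 and 241.4 CPM at ZT0, 304.5 and 263.9 CPM at ZT6, 264.0, 349.8 and 318.8 CPM at ZT12 and 346.7 and 273.2 CPM at ZT18, and every time overlapped every other (ZT12 against ZT0, log2 fold change 0.08 ± 0.22, SE, n = 3 and 3, adjusted p = 0.908). Sdsl was at 14.7, 14.0 and 8.95 CPM at ZT0, 13.8 and 12.7 CPM at ZT6, 17.2, 15.4 and 14.6 CPM at ZT12 and 12.6 and 14.6 CPM at ZT18. Its ZT12 against ZT0 value was 0.17 ± 0.25 (SE, n = 3 and 3, adjusted p = 0.811), from 25 to 110 UMIs a library.

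**Figure D4:**
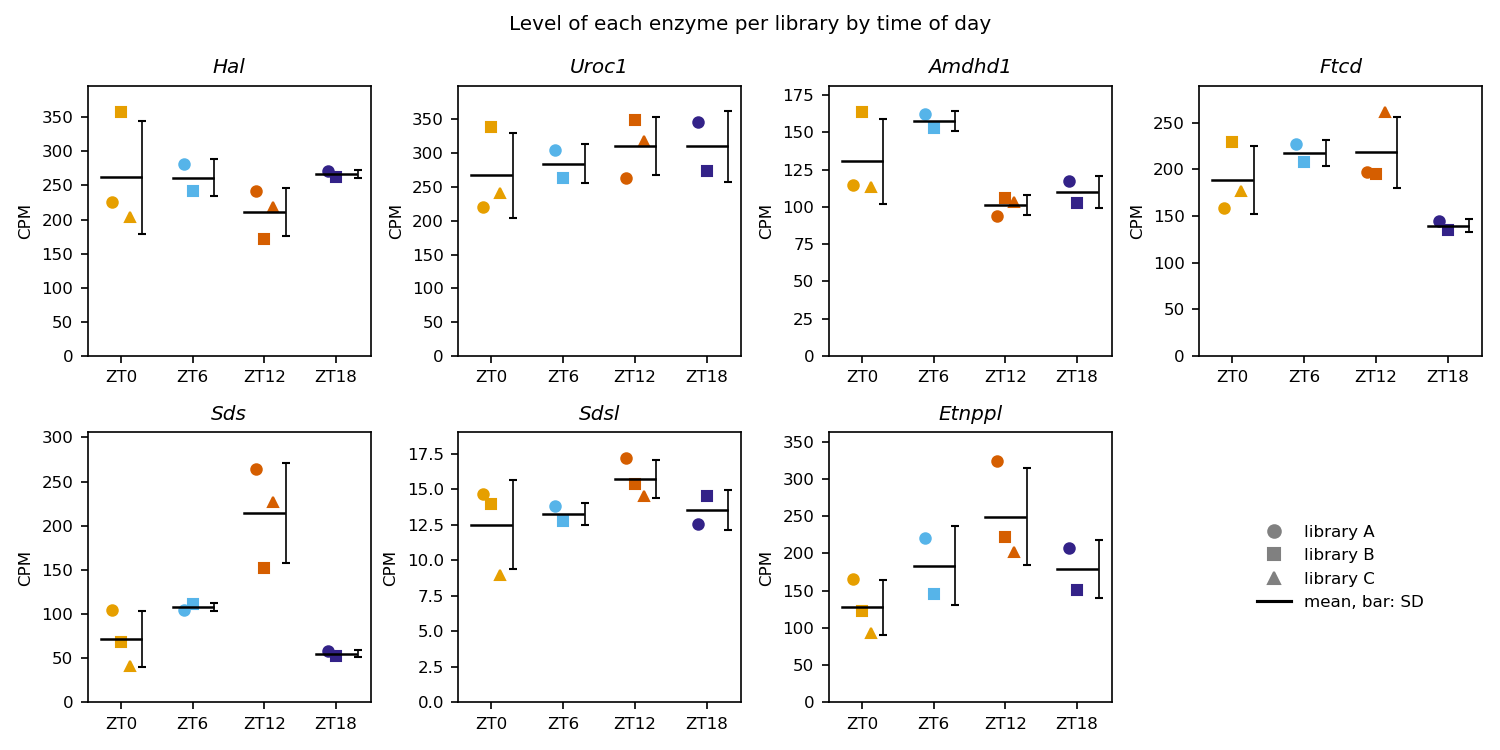
Level of each enzyme in CPM (y axis, from 0) by time of day, 1 symbol per library. Horizontal bars are means and the bar beside each is the SD over 3 libraries (ZT0, ZT12) or 2 (ZT6, ZT18). Sds at ZT12 lies between 152.7 and 264.0 CPM, above all other libraries, and Ftcd is lowest at ZT18.

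A 24-h wave was fitted to the 10 libraries, its amplitude being the height of the peak over the mean on the log2 scale. edgeR's quasi-likelihood test called 0 of the 7 enzymes and 5.14% of all genes. At an unadjusted p under 0.05 were 3 of 7 (Sds, Amdhd1 and Etnppl) and 1816 of 8908 genes. DESeq2 and limma-voom called 1 each, Sds (adjusted p = 0.00872 and 0.0481), with 8.89% and 4.45% of all genes. For Sds the amplitude was 0.83 and the fitted peak ZT 9.86 (adjusted p = 0.0584). With the index column as a block, ZT18 was taken up by its own column. That fit therefore rested on ZT0, ZT6 and ZT12 and could not test a 24-h wave. In it the amplitude of Sds was 0.74 and its peak ZT 11.8 (adjusted p = 0.00304). Etnppl was then called too, with 0.43 and a peak at ZT 11.07 (adjusted p = 0.0236), as were 6.99% of all genes. For Amdhd1 the amplitude was 0.34 and the peak ZT 2.77 (adjusted p = 0.19), and the other 4 had 0.10 to 0.28 (adjusted p = 0.359 to 0.879). Between ZT18 and ZT6 edgeR called 0 of 7 and 3.79% of all genes. At an unadjusted p under 0.05 were 2 of 7 (Sds and Ftcd) and 1744 of 8908 genes. DESeq2 and limma-voom also called 0 of 7, with 4.19% and 3.96% of all genes. With 6 h between samples, a short pulse and a 24-h wave look alike. Columns 3 and 5 held ZT0 and ZT12 libraries, column 7 libraries of ZT0, ZT6 and ZT12, and column 4 only ZT18 libraries, so ZT18 and its column cannot be told apart.

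Sds was called both between zones and, in the fit without blocks, among times. In the periportal zone the averages of ZT0, ZT6, ZT12 and ZT18 were 134 ± 34.3, 215 ± 8.92, 443 ± 149 and 86.1 ± 1.68 CPM (SD, n = 3, 2, 3 and 2). In the pericentral zone they were 21.5 ± 13.6, 27.0 ± 0.78, 37.6 ± 15.3 and 11.2 ± 0.04 CPM. The order of the 4 times was the same in both zones. In the periportal zone alone, the wave of Sds was called (amplitude 0.99, peak at ZT 9.46, adjusted p = 0.0144), with 4.31% of all genes. ZT12 against ZT0 was called there too for Sds, 1 of 7, with 2.82% of all genes. In the pericentral zone alone, the wave was called for 0 of 7 and 2.94% of all genes. ZT12 against ZT0 was not called there for Sds (log2 fold change 0.67, adjusted p = 0.61, with 1.80% of all genes called). The pericentral zone held 369 UMIs of Sds in all libraries, against 2933 in the periportal zone. In layer 8 the levels of Sds in the same order of times were 155 ± 41.1, 258 ± 7.5, 530 ± 220 and 92.9 ± 4.6 CPM, and 13.7% ± 2.8, 21.3% ± 1.7, 37.4% ± 11.9 and 7.13% ± 1.96 of its cells had a UMI of Sds at 1000 UMIs per cell.

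The difference between the zones in rhythm was tested directly, and edgeR called 0 of 7 enzymes and 0.0337% of all genes. At an unadjusted p under 0.05 were 0 of 7 enzymes and 575 of 8914 genes. DESeq2 and limma-voom called 0 of 7, with 0.00% and 0.0224% of all genes. For Sds the amplitude of the zone difference was 0.28 (adjusted p = 0.892), and Hal had the lowest adjusted p, 0.886, with 0.54. With the replicate block by zone, which ties the letters of all 4 times, Hal was called (amplitude 0.61, adjusted p = 0.0336, with 0.370% of all genes), and it was called without library C of ZT0 (amplitude 0.73, adjusted p = 0.0321, with 0.382%). The calls in one zone and not in the other therefore do not show a difference between them. Etnppl in the periportal zone averaged 236 ± 32.5, 338 ± 85.1, 459 ± 132 and 250.1 ± 26.4 CPM in that order, while its pericentral averages of 28.03 ± 24.21, 35.6 ± 23.3, 30.4 ± 20.1 and 52.5 ± 25.5 CPM overlapped between all times (SD, n = 3, 2, 3 and 2). Hal at ZT12 had the lowest pericentral average, 18.5 ± 13.4 CPM, beside 45.7 ± 5.0 to 67.2 ± 20.7 at the other times. When only cells of at least 3000 UMIs were used, 44 to 953 a library, the rhythm of Uroc1, Amdhd1 and Etnppl was called as different between zones (adjusted p = 0.0431, 0.0431 and 0.0454), with 0.326% of all genes.

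Genes with a pattern most like each enzyme were ranked by Pearson correlation of log2(CPM + 1) over 32 points, 8 layers at 4 times, among 4321 genes. These points share libraries and the score that placed the cells, so the values are descriptions. Gls2, the liver glutaminase that releases ammonia from glutamine, came first for Etnppl (r = 0.98), Uroc1 (0.975) and Sdsl (0.915) and second for Hal (0.963). Serpina12, which encodes the secreted protein vaspin, came first for Hal (0.974). Aspg, an asparaginase, came first for Ftcd (0.946), and H2-Q7, a class I histocompatibility gene, and Khk, ketohexokinase, came first and second for Amdhd1 (0.941 and 0.938). For Sds the nearest were Hsd17b6, a hydroxysteroid dehydrogenase (0.934), Trf, transferrin (0.93), and Hpx, hemopexin (0.93). Among the 7 themselves, Uroc1 and Etnppl were most alike (0.973), and Sds was least like Amdhd1 (0.669) and Hal (0.741). The neighbours Hal and Amdhd1 correlated at 0.931 and the neighbours Sds and Sdsl at 0.814.

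Lists of related genes had lower median differences between zones than the 7, although Gls2, Gldc and Ppargc1a among the genes named lay within their range. The 7 and the lists were chosen with earlier results of these data known, so these medians are descriptions. Of 10 tested genes of histidine and glutamate metabolism, 4 were called higher in the periportal zone and 1 in the pericentral zone. The higher ones were Gls2 (log2 fold change 2.91 ± 0.20, SE, adjusted p = 1.43e-13), Got1, an aspartate aminotransferase (1.04 ± 0.08), Hnmt, which methylates histamine (0.84 ± 0.15), and Gpt, an alanine aminotransferase (0.38 ± 0.07). Glud1, glutamate dehydrogenase, was lower there (-0.24 ± 0.06). The median over the list was 0.08. Of 17 tested genes of serine, glycine and threonine metabolism, 6 were higher in the periportal zone and 1 lower (median 0.11). They included Gldc of the glycine cleavage system (2.05 ± 0.15, adjusted p = 2.99e-13), Cbs, cystathionine beta-synthase (0.77 ± 0.07), Gnmt, glycine N-methyltransferase (0.57 ± 0.06), and Agxt, which transaminates glyoxylate and serine (0.63 ± 0.08).

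Folate enzymes, which take up the one-carbon unit released by Ftcd, were mostly not called: 1 of 14 tested was called higher in the periportal zone, Aldh1l1, formyltetrahydrofolate dehydrogenase (0.45 ± 0.06, SE, adjusted p = 3.89e-07), and 0 lower, with a median of 0.05. Among 11 tested genes of phosphoethanolamine and its lipids, 5 were called higher and 1 was called lower (median 0.16). These were led by the ethanolamine kinase Etnk1 (0.84 ± 0.08), the choline kinase Chka (0.97 ± 0.11) and Sgpl1, the sphingosine-1-phosphate lyase that yields phosphoethanolamine (0.58 ± 0.09), and Selenoi, which joins ethanolamine to lipid, was lower (-0.51 ± 0.10). Of 8 tested amino acid transporters, 6 were called higher and 0 lower (median 0.35), led by the cationic amino acid carrier Slc7a2 (1.02 ± 0.07, adjusted p = 7.74e-14) and Slc38a3, which carries glutamine and histidine (0.72 ± 0.08). Of 18 genes of the hormonal response to fasting, 6 were called higher and 3 were called lower (median 0.13). Among them were Pck1, the gluconeogenic carboxykinase (1.05 ± 0.07), the coactivator Ppargc1a (1.81 ± 0.15), Tat, tyrosine aminotransferase (0.65 ± 0.06), and the transcription factor Cebpb, which was lower (-0.71 ± 0.07).

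By time, the same lists held genes on both sides of the day. Between ZT12 and ZT0, 4 of 18 fasting genes were called higher at ZT12 and 0 lower: Pck1 (1.58 ± 0.26, SE, adjusted p = 0.00353), Foxo1 (1.28 ± 0.19), Ppargc1a (1.22 ± 0.22) and Fkbp5, a glucocorticoid target (2.16 ± 0.38). Of 8 transporters, Slc7a2 (1.75 ± 0.23, adjusted p = 0.000685) and Slc38a2 (1.46 ± 0.30), which carries small neutral amino acids including serine, were higher at ZT12 and 0 were lower. Sds had 1.40 on this scale. In the fit without blocks its peak was ZT 9.86, beside ZT 9.26 for Slc7a2 and ZT 10.22 for Pck1. The wave of Sds was not called in that fit (adjusted p = 0.0584). With the index column as a block the peak of Sds was ZT 11.8, from a fit in which ZT18 had no part. These peaks do not give an order. In the folate list, Fpgs, which adds glutamates to folate, was lower at ZT12 (-0.98 ± 0.21).

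In the serine list, 1 of 17 was called, Gldc, lower at ZT12 (-0.91 ± 0.21), opposite in sign to Sds. In the histidine and glutamate list 2 of 10 were higher at ZT12, Gpt2 (0.93 ± 0.20) and Got1 (1.02 ± 0.26), and 0 lower. In the phosphoethanolamine list, Etnk2 was higher (1.09 ± 0.23), and Chka (-3.43 ± 0.33) and Selenoi (-0.90 ± 0.23) were lower, while the unpaired value of Etnppl was 0.81. Medians were 0.53 for the fasting genes, 0.47 for the transporters, 0.15, -0.02, -0.10 and -0.11 for the histidine, serine, folate and phosphoethanolamine lists, and 0.08 for the 7 enzymes, beside 0.00 over all genes.

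**Figure D5:**
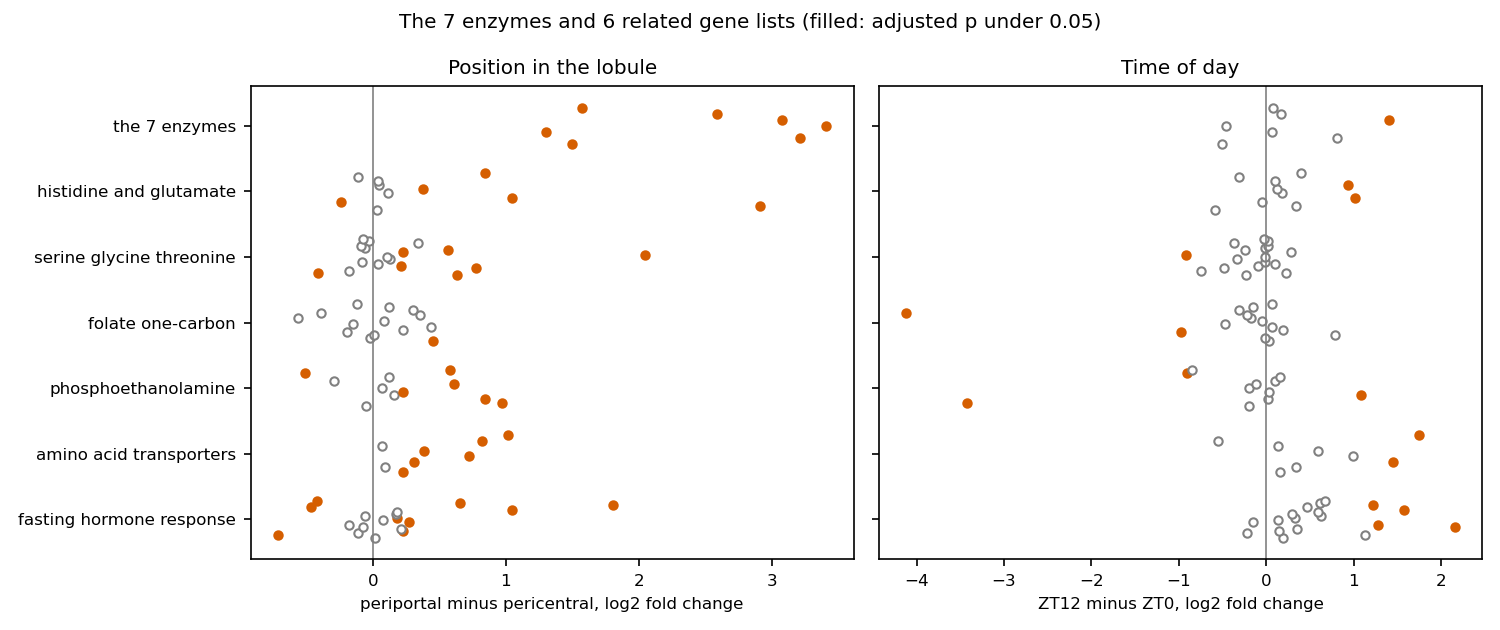
Log2 fold change of each tested gene (1 point each) for the 7 enzymes and 6 gene lists, between the periportal and the pericentral zone (left) and between ZT12 and ZT0 (right). Filled points have an adjusted p under 0.05. All 7 enzymes lie at 1.30 or above on the left, and 1 of them, Sds at 1.40, is filled on the right.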

How the data were processed

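Single-cell 3′ libraries of mouse hepatocytes at 4 times were analysed. The deposited values are UMI counts per gene and cell, whole numbers with no normalization by the authors. The submitters' processing notes name Cell Ranger, mm10 and hg19 with no version or role, and the aligner's settings, cell filters and strand use are not given in the sources used here. Cells are numbered, so barcodes shared between libraries could not be counted. The members and lists were chosen with earlier results of these data known.

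Counts were summed per library, or per library and zone, and tested with edgeR 4.0.16 (R 4.3.3; glmQLFit and glmQLFTest) after TMM normalization (factors 0.8876 to 1.143), for genes averaging 3 CPM or more, with a threshold of 0.05 on Benjamini-Hochberg adjusted p. Time tests used all 10 libraries: a 24-h cosine and sine, any difference among 4 means, ZT12 against ZT0 and ZT18 against ZT6. Zone tests used the library as a block. The zone score was the mean z-score of log values per 10000 UMIs over 6 periportal minus 8 pericentral landmarks, and Hal and Ftcd, common landmarks, were left out. Landmarks were left out of zone counts. No 2 libraries of a time were copies (chi-square of counts 5.304 to 63.574 per degree of freedom). Doublets were not called, and dropping the deepest 5% of cells was an alternative.

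Same-letter libraries of ZT0 and ZT12 shared an index column and deviated together over 4349 genes (r = 0.269 for A, 0.5105 for B and 0.6241 for C). They were taken as pairs only in the alternatives with a replicate block, and the main time tests had no block. Letters did not pair the other times. The genes named are the 7 enzymes, the 3 genes most like each, and up to 4 genes per list by lowest adjusted p. Selenoi was matched through an older symbol, and Pisd, which has 2 rows, was left out. A result of the folate list by time is not reported here. Alternatives were other scalings, DESeq2 1.42.0, limma 3.58.1 (voom), other filters, blocks, scores and cells, and each library left out. The tests were tried on simulated counts of independent libraries, without shared deviations of letters or columns, and the outcome is not given here.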

Additional observations from a re-analysis of the deposited data

Results flagged for a closer look

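The difference of Sds between the periportal and pericentral zones, on the log2(CPM + 1) scale, was 4.634 in library C of ZT12, apart from the other 9 libraries, which ran from 2.23 to 3.45. Its Sds counts there were 13 UMIs (pericentral) and 347 UMIs (periportal). A gap of this size relative to the range of the group is met by chance in about 1 in 20 groups, and 7 enzymes were examined this way.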

How the results depend on the processing

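All 7 zone differences were called with the same sign under every alternative in which the gene was tested, and Sdsl was not tested at a mean of at least 20 CPM. The share of all genes called between zones in these fits ran from 13.6% to 39.0%. Of 904 values of single enzymes under alternatives, 859 kept sign and side of the threshold, 19 gained a call, 11 lost one and 15 changed sign. The count of enzymes with a rhythm, 0, was 1 with library size alone (4.71% of all genes called), DESeq2 (8.89%) or limma-voom (4.45%). It was also 1 with no filter on low counts (4.97%) or in the periportal zone alone (4.31%). It was 2 with the replicate block (8.41%) or the index column as a block (6.99%), a fit in which ZT18 had no part. The counts for any difference among times and for ZT12 against ZT0, 1 each, were 2 with the replicate block (11.1% and 5.66% of all genes) and 0 in the pericentral zone alone (3.54% and 1.80%). The first was also 0 without both ZT18 libraries (2.60% of all genes). The second was 0 with ZT0 and ZT12 libraries alone (2.07%), or 2 with the replicate block in them (4.74%). These fits by zone or subset of libraries were chosen after seeing the data. Zone-dependent rhythm, 0, was 3 in cells with at least 3000 UMIs (0.326% of all genes). It was 1 with the replicate block by zone (Hal, adjusted p = 0.0336, with 0.370% of all genes). With 1 library of ZT0 or ZT12 left out, the counts ran from 0 to 1 for rhythm (3.38% to 5.20% of all genes). They ran from 0 to 1 for any difference (4.87% to 7.48%) and from 0 to 2 for ZT12 against ZT0 (2.40% to 3.51%). For zone-dependent rhythm they ran from 0 to 1 (Hal, without library C of ZT0, adjusted p = 0.0321), with 0.0336% to 0.382% of all genes. The replicate block changed no other call.

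Signs also changed. For ZT12 against ZT0 these were, in the periportal zone, Uroc1 (-0.0328) and Ftcd (-0.002315), and in the pericentral zone Uroc1 (-0.1153), Ftcd (-0.0268) and Sdsl (-0.4566). With a library left out, the values ran from -0.06741 to 0.2829 for Uroc1, -0.03643 to 0.2213 for Ftcd and -0.06199 to 0.3521 for Sdsl. For ZT18 against ZT6, Etnppl was -0.03731 with library size alone and -0.1793 to 0.3125 with a library left out, and Sdsl -0.02101 to 0.2284. Between enzymes, Uroc1 minus Sdsl was 0.12 with a pseudocount of 10 CPM and Sds minus Sdsl -0.20 with 0.1 CPM, and the pseudocount also changed calls of pairs without Sdsl (Hal and Etnppl, Sds and Etnppl, Hal and Sds). The cause of the other changes was not tested. Depth limits Sdsl, at 25 to 110 UMIs a library.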
